A study of Mus musculus with 8 samples.

Results

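The Hedgehog pathway genes described here are 9 genes chosen by name: the ligand genes Shh, Ihh and Dhh, the receptor and surface genes Ptch1, Smo and Hhip, and the transcription factor genes Gli1, Gli2 and Gli3. They were found at 10 of the 52281 named loci in the table, because Gli3 names 2 loci, and all 10 passed the filter on low values. The libraries were made from mouse embryoid bodies, aggregates in which embryonic stem cells differentiate, collected at day 9 on a C57BL/6 background. There were 8 libraries in 4 groups of 2: a wild-type Prdm16 control set, a Prdm16 knockout (PRDM16 KO), a separate wild-type PR domain control set, and a PR domain knockout, whose titles name exon 4. Prdm16 encodes a zinc finger transcription factor, and the PR domain is the part of it related to histone methyltransferases. The labels name no treatment, no cell clone and no separate cultures for the replicates, so a knockout and a difference between clones cannot be told apart, and the spread behind each p-value is that between these libraries and may be technical alone.

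Hedgehog ligands are secreted proteins that bind Patched receptors. Without ligand, the Patched protein holds the membrane protein Smoothened inactive, and Gli proteins, above all Gli3, are cut into repressors. Ligand binding releases Smoothened, Gli activators form at the primary cilium, and transcription of Ptch1, Gli1 and Hhip rises, so these 3 genes serve as both parts and readouts of the pathway. In the mouse embryo Shh comes from notochord, floor plate and gut, and Ihh from visceral endoderm and, later, cartilage and gut. Dhh is known from Schwann and Sertoli cells.

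Levels are normalised fragments: the fragments on a locus, scaled by each library's size factor. Group levels are means ± SD over the 2 libraries (n = 2). Changes are differences on the log2(value + 1) scale, which understates those of low genes, with the SE from limma, and p-values were adjusted by the Benjamini-Hochberg method over 16623 loci. An adjusted p under 0.05 counted as a call. The libraries held 6273789 to 9086885 fragments on named loci. Prdm16 itself stood at 24.4 and 26.3 normalised fragments in its control and 11.2 and 1.10 in the Prdm16 knockout (-2.38 ± 0.50, limma adjusted p = 0.000306). The PR domain control had 44.6 and 22.7, with 23.3 and 15.7 in the PR domain knockout (-0.71 ± 0.50, limma adjusted p = 0.377). Whether exon 4 is missing cannot be read from a value summed over the gene.

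The first comparison set each knockout against its own control. In the Prdm16 knockout 1 Hedgehog gene rose, Ihh, and 5 genes at 6 loci fell: Shh, Ptch1, Smo, Gli1 and Gli3. These are 7 of the 10 loci, against 39.1% of all tested loci called in this comparison (18% higher and 21.1% lower). The median of the 10 loci, which counts Gli3 at both its loci, was -0.33 on the log2 scale, beside -0.03 over all tested loci. With 1 locus per gene the median of the 9 genes was -0.20. In the PR domain knockout 1 of the 10 loci was called, Ihh, which rose, against 19.2% of all tested loci (8.48% higher and 10.7% lower). There the median of the 10 loci was 0.12 and that of the 9 genes 0.15, beside -0.03 over all tested loci.

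**Figure D1:**
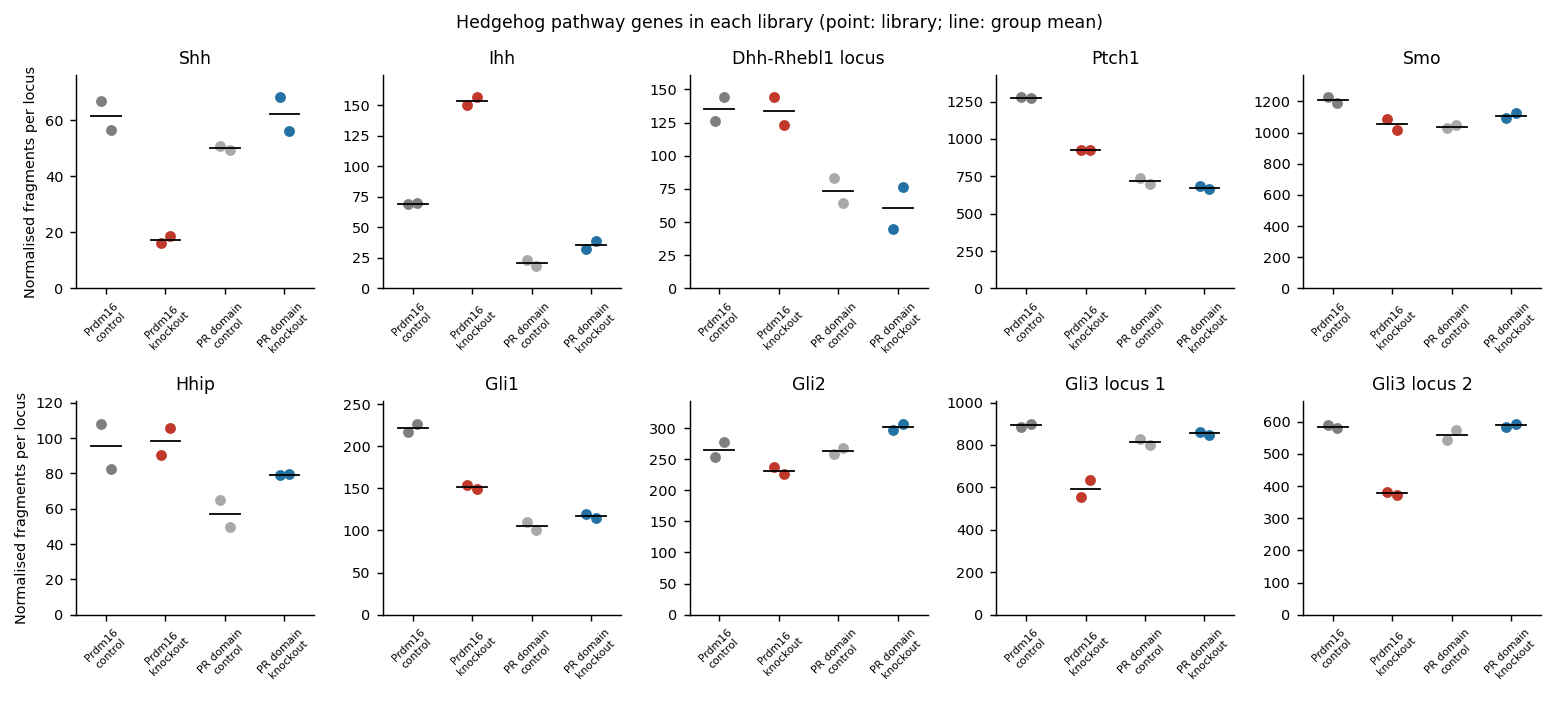
Normalised fragments per locus (y axis from 0) for the 10 Hedgehog loci in the 8 libraries, with 1 point per library and a line at the mean of each group of 2. Shh is lowest and Ihh highest in the 2 Prdm16 knockout libraries, and Ptch1 and Gli1 are highest in the Prdm16 control libraries.

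Among the ligands, Shh and Ihh moved in opposite directions in the Prdm16 knockout. Shh (ENSMUSG00000002633.4, chromosome 5, 28456815 to 28467256, minus strand; positions here and below are GRCm38 from GENCODE M21) encodes Sonic hedgehog, the ligand that patterns the ventral neural tube. The Prdm16 control libraries had 66.8 and 56.4 normalised fragments and the Prdm16 knockout libraries 16.1 and 18.7, from 63, 60, 13 and 17 fragments. Both knockout libraries lay below both controls. The fall was -1.76 ± 0.23 (limma adjusted p = 3.43e-07), to 28.5% of the control (95% exact interval for counting error only, 18.5 to 42.8%). Shh had 50.7 and 49.5 normalised fragments in the PR domain control and 68.2 and 56.2 in that knockout. That difference did not pass (0.30 ± 0.23, limma adjusted p = 0.425). The effects of both knockouts on Shh differed by -2.06 ± 0.33 (limma adjusted p = 3.04e-05). These are bulk samples, in which fewer cells of a type and less RNA per cell cannot be told apart.

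A non-coding gene on the opposite strand, Gm26894, overlaps Shh in the annotation and was looked at after the values of Shh were seen. Its fragments numbered 16 and 17 in the Prdm16 control and 1 and 2 in the Prdm16 knockout. Gm26894 thus fell as well (-2.71 ± 0.52, limma adjusted p = 0.000105), and its level was 10.6% of control (95% exact interval 2.09 to 33.9%). It had 9 and 3 fragments in the PR domain control and 16 and 16 in that knockout (1.20 ± 0.52, limma adjusted p = 0.112). The effects of both knockouts on Gm26894 differed by -3.90 ± 0.74 (limma adjusted p = 0.000297). Another gene that overlaps Shh on the opposite strand, 9530036O11Rik, was too low to test. The counting is not stated to use strand, so fragments of Shh and of Gm26894 cannot be separated where they overlap.

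Shh was read beside markers of its known sources. Among 12 notochord and floor plate markers 9 were tested, of which 3 fell and 0 rose in the Prdm16 knockout (median -0.25). These calls stand beside 39.1% of all tested loci called in this comparison (18% higher and 21.1% lower). The mesoderm and notochord gene T fell from 31.0 ± 1.21 to 2.27 ± 1.46 (-3.36 ± 0.59, limma adjusted p = 2.85e-05). The axon guidance genes Ntn1, a product of the floor plate, and Slit1 fell by 1.56 and 3.26 on the log2 scale. Both also fell in the PR domain knockout, where Shh did not pass, Ntn1 by 1.39 and Slit1 by 1.39 (limma adjusted p = 5.05e-08 and 0.00143). Foxa2, which the notochord, the floor plate and the endoderm all express, had 106 and 94.1 normalised fragments in the control and 129 and 118 in the knockout (0.30 ± 0.21, limma adjusted p = 0.262). The summed level of the list was 1392 to 1457 in the Prdm16 control and 1144 to 1159 in the Prdm16 knockout. Over the PR domain set it was 1272 to 1295 in the control and 1126 to 1167 in the knockout. There 2 markers rose and 3 fell, beside 19.2% of all tested loci called. Noto, a defining gene of the notochord, was at 0 fragments in all 8 libraries, where a count of 0 allows up to 3 fragments. Ferd3l, a floor plate gene, had 1 fragment in PR domain control replicate 2 and 0 in the other libraries. The part of these cell types in the fall of Shh was not tested.

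Ihh (ENSMUSG00000006538.12, chromosome 1, 74945315 to 74951672, minus strand) encodes Indian hedgehog, the ligand of visceral endoderm and growth plate cartilage. Its level was 68.9 and 69.6 normalised fragments in the Prdm16 control and 150.1 and 156 in the Prdm16 knockout. Both knockout libraries were above all other libraries. Ihh rose by 1.13 ± 0.21 (limma adjusted p = 6.48e-05) to 221% of control (95% exact interval 179.6 to 274%). The level was 23.3 and 18.6 in the PR domain control and 32.3 and 38.9 in its knockout, from 23, 18, 36 and 47 fragments. That rise was 0.74 ± 0.21 (limma adjusted p = 0.0111), or 170.3% of control (95% exact interval 116 to 254%). The call was lost when either of 2 libraries was left out: without PR domain control replicate 2 it was 0.58 (limma adjusted p = 0.118) and without PR domain knockout replicate 2 it was 0.61 (limma adjusted p = 0.127). DESeq2 gave 0.80 (adjusted p = 0.137) and log2(FPKM + 1) gave 0.45 (limma adjusted p = 0.137), neither of which passed. The effects of both knockouts on Ihh did not differ by the test (0.39 ± 0.30, limma adjusted p = 0.414).

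Visceral endoderm markers moved with Ihh in each comparison. Of 14 markers 10 rose and 0 fell in the Prdm16 knockout (median 0.72). There 39.1% of all tested loci were called (18% higher and 21.1% lower). The counts were 13 and 1 in the PR domain knockout (median 0.82), beside 19.2% of all tested loci (8.48% higher and 10.7% lower). The median over all tested loci was -0.03 in each comparison. The alpha-fetoprotein gene Afp rose from 5298 ± 198 to 13655 ± 42.0 in the Prdm16 knockout, and the lipoprotein genes Apob and Apoa1 rose by 0.93 and 1.30 on the log2 scale. Ttr, which encodes a thyroid hormone carrier, rose from 264 ± 18.5 to 640.2 ± 81.9 in the PR domain knockout. The 1 marker that fell there was Sox17, an endoderm and endothelial transcription factor gene (-0.99 ± 0.16, limma adjusted p = 1.85e-05). The summed level of the list ran from 39378 to 41051 in the Prdm16 control and from 79320 to 79964 in its knockout. It ran from 9404 to 9518 in the PR domain control and from 13939 to 14087 in its knockout. The order of the 4 groups by this sum is that of Ihh. The part of visceral endoderm cells in the rise of Ihh was not tested. Among growth plate markers, Acan, Matn1, Col10a1 and Pthlh were too low to test, the cartilage collagen gene Col2a1 fell in the Prdm16 knockout (by 1.64, log2), and Pth1r, the parathyroid hormone receptor gene, rose (0.60). Col2a1 fell in the PR domain knockout too (by 0.81, log2; limma adjusted p = 3.31e-13). The other 2 tested markers passed in neither knockout. The growth plate calls stand beside the same shares of all tested loci.

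Per transcript length, the order of both ligands differed between the Prdm16 and PR domain sets. FPKM values, which divide fragments by transcript length and library size, allow levels of different genes to be set side by side. Ihh had 3.61 and 3.45 FPKM and Shh 2.76 and 2.34 FPKM in the Prdm16 control, a ratio of Ihh to Shh of 1.30 and 1.48. In the Prdm16 knockout Ihh had 8.26 and 8.74 FPKM and Shh 0.667 and 0.774 FPKM, so the ratio was 12.4 and 11.3. The ratio was 0.575 and 0.438 in the PR domain control and 0.593 and 0.835 in the PR domain knockout. Ihh thus exceeded Shh in the 4 libraries of the Prdm16 sets and lay below it in the 4 of the PR domain sets.

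**Figure D2:**
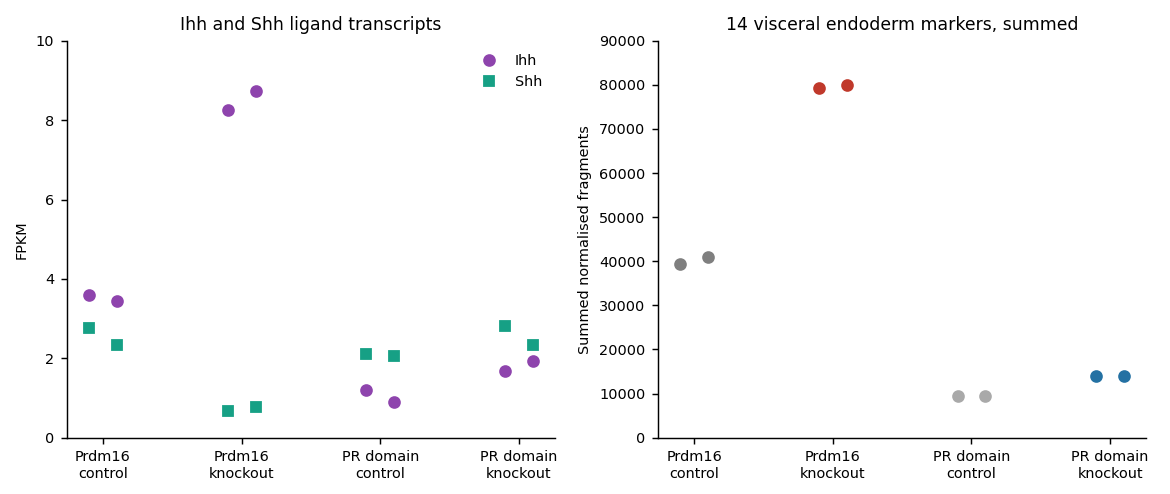
Left, FPKM of Ihh (circles) and Shh (squares) in each library of the 4 groups. Right, the summed normalised fragments of 14 visceral endoderm markers in the same libraries, of which Apob is a large part in the Prdm16 sets. Ihh is above Shh in both Prdm16 sets and below it in both PR domain sets, and the marker sum is highest in the Prdm16 knockout, at 79320 and 79964.

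Dhh, the Desert hedgehog gene (ENSMUSG00000023000.5, chromosome 15, 98891152 to 98898540, minus strand), shares its locus in the table with its neighbour Rhebl1, a gene for a small GTPase, so its values belong to no single gene. This joint locus had 126 and 144 normalised fragments in Prdm16 control libraries and 144 and 123 in the Prdm16 knockout. The groups overlapped (-0.02 ± 0.19, limma adjusted p = 0.955). It had 83.2 and 64.0 in the PR domain control and 44.9 and 76.1 in the PR domain knockout, which overlapped as well (-0.31 ± 0.19, limma adjusted p = 0.291). Without PR domain knockout replicate 2 the second difference was -0.69 and passed (limma adjusted p = 0.025). Of 6 markers of Schwann and Sertoli cells 4 were too low to test, Sox10, Amh and Dmrt1 among them, and 0 of the other 2 passed in either knockout.

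Per length, Smo (37.5 ± 0.868 FPKM) and Ptch1 (26.4 ± 0.734 FPKM) were high and Hhip (2.14 ± 0.303 FPKM) low in the Prdm16 control. Ptch1 (ENSMUSG00000021466.12, chromosome 13, 63508328 to 63573598, minus strand) encodes the main Hedgehog receptor and is itself induced by the pathway. The Prdm16 control libraries had 1278 and 1275 normalised fragments and the knockout libraries 928 and 925. The replicates lay far closer together than the groups, and Ptch1 fell by 0.46 ± 0.06 on the log2 scale (limma adjusted p = 1.78e-07). Ptch1 had 739 and 699 in the PR domain control and 684 and 666 in its knockout, a difference that did not pass (-0.09 ± 0.06, limma adjusted p = 0.317). The effects of both knockouts on Ptch1 differed by -0.37 ± 0.08 (limma adjusted p = 0.00181).

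Smo (ENSMUSG00000001761.7, chromosome 6, 29735503 to 29761365, plus strand), the Smoothened gene, joins a locus with Gm13717, a processed pseudogene inside it. The Prdm16 set had 1226 and 1191 normalised fragments in controls and 1086 and 1019 in knockouts. The PR domain set had 1029 and 1047 in controls and 1094 and 1126 in knockouts. In the Prdm16 knockout Smo fell by 0.20 ± 0.05 on the log2 scale (limma adjusted p = 0.00418). This small fall did not pass without Prdm16 knockout replicate 2 (-0.15, limma adjusted p = 0.0765) or with DESeq2 (-0.16, adjusted p = 0.113). The PR domain knockout had a value of 0.10 ± 0.05 (limma adjusted p = 0.25), and both effects differed by -0.30 ± 0.08 (limma adjusted p = 0.00764). This difference of effects did not pass with DESeq2 (-0.30, adjusted p = 0.06) or on log2(FPKM + 1) (-0.25, limma adjusted p = 0.304).

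Hhip (ENSMUSG00000064325.4, chromosome 8, 79965851 to 80058006, minus strand) encodes a surface protein that binds and traps Hedgehog ligands and is induced by the pathway. Its level was 108 and 82.8 normalised fragments in the Prdm16 control and 90.6 and 106 in the Prdm16 knockout, so the groups overlapped (0.05 ± 0.18, limma adjusted p = 0.862). It did not follow Ptch1 past the test in that knockout. Hhip had 64.9 and 49.5 in the PR domain control and 78.9 and 79.4 in that knockout. Both knockout libraries were above both controls, but the difference of 0.47 ± 0.18 did not pass (limma adjusted p = 0.0692). Without PR domain control replicate 1 it was 0.67 and passed (limma adjusted p = 0.038).

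RefSeq promoter windows (GRCm38.p6), 250 bases before to 50 after a start site, were found for 7 of the 9 genes and searched for the Gli binding motif GACCACCCA and its core ACCACCC on both strands; every match of the longer motif also holds the core. The longer motif was in 0 of the 7 windows, and in 0.253% of 32851 windows of all genes. The core was in 1, that of Gli2, and in 4.61% of all windows. A match is only a description of these letters. The windows of the readout genes Ptch1 and Hhip are shown because Ptch1 fell in the Prdm16 knockout and Hhip did not pass, and that of Gli2 for its match, in capitals on the opposite strand. The gene model of Ptch1 extends beyond its window, so other start sites are not covered. They are printed 5′ to 3′ on the minus strand, at chr13:63565686-63565985, chr8:80057959-80058258 and chr1:119053570-119053869.
Ptch1: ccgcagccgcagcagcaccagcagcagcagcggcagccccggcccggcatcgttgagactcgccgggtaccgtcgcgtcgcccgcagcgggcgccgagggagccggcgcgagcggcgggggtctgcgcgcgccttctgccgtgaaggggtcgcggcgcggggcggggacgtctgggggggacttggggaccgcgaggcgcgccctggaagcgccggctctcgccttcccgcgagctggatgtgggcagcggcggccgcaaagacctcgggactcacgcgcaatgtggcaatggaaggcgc
Hhip: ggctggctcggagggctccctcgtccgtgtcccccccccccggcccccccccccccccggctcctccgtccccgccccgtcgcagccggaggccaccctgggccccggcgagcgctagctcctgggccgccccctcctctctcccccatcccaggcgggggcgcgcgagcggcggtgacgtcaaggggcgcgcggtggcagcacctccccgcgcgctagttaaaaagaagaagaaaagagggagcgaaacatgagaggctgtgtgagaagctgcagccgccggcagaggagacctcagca
Gli2: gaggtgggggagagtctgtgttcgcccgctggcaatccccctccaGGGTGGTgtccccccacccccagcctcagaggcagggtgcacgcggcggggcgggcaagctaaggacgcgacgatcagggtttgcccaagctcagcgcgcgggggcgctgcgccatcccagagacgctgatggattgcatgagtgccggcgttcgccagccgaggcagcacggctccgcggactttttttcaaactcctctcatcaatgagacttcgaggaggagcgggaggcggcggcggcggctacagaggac

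Of the transcription factors, Gli1 and Gli3 fell in the Prdm16 knockout and Gli2 did not pass. Gli1 (ENSMUSG00000025407.7, chromosome 10, 127329882 to 127341974, minus strand) encodes an activator whose transcription depends on pathway activity. The Prdm16 control libraries were at 216 and 227 normalised fragments and the knockout libraries at 154 and 149.6, and the groups stood apart (-0.54 ± 0.13, limma adjusted p = 0.000978). The PR domain control had 111 and 100.1 and the PR domain knockout 119 and 115 (0.15 ± 0.13, limma adjusted p = 0.463). The effects of both knockouts on Gli1 differed by -0.70 ± 0.18 (limma adjusted p = 0.00683). With DESeq2 this difference of effects did not pass (-0.70, adjusted p = 0.0835).

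The fall of Gli1 is in fragments and not in FPKM. Gli1 had 7.45 and 6.59 FPKM in the Prdm16 control and 7.67 and 7.18 FPKM in the Prdm16 knockout, and on log2(FPKM + 1) the value was 0.07 (limma adjusted p = 0.756). The FPKM given to 100 normalised fragments of Gli1 was 3.45 and 2.91 in the Prdm16 control and 4.99 and 4.80 in the Prdm16 knockout, while for Shh it was 4.14 in each of the 8 libraries. The factor between both kinds of value for Gli1 thus differed between these libraries, and isoforms were not analysed here. Arhgap9, looked at after these values were seen, overlaps Gli1 on the opposite strand and had 117 and 114 normalised fragments in Prdm16 control libraries and 127 and 122 in the Prdm16 knockout (0.11 ± 0.16, limma adjusted p = 0.624). Fragments from the overlap cannot be assigned to 1 strand.

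Gli2 (ENSMUSG00000048402.14, chromosome 1, 118834132 to 119053619, minus strand) encodes the main activator of the first response to ligand. Its libraries had 253 and 277 normalised fragments in Prdm16 control libraries, 237 and 226 in its knockout, 258 and 267 in the PR domain control, and 297 and 307 in that knockout. The Prdm16 knockout value was -0.20 ± 0.10 (limma adjusted p = 0.103) and that of the PR domain knockout 0.20 ± 0.10 (limma adjusted p = 0.15). Neither passed. The difference of both effects passed narrowly (-0.40 ± 0.13, limma adjusted p = 0.0402) and was lost in 11 of 21 alternatives. In 10 of these the value was -0.333 to -0.425, and on log2(FPKM + 1) it was -1.33 (limma adjusted p = 0.188). Gli2 had 11.6 and 8.93 FPKM in Prdm16 control libraries and 5.03 and 4.34 FPKM in the knockout, a value of -0.98 on log2(FPKM + 1) that did not pass (limma adjusted p = 0.067). The FPKM given to 100 normalised fragments of Gli2 was 4.58 and 3.22 in those controls and 2.12 and 1.92 in those knockouts, so here too the factor between both kinds of value differed.

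Gli3 (ENSMUSG00000021318.15, chromosome 13, 15463235 to 15730026, plus strand) encodes the main repressor of the pathway. The table has a pair of loci under this name. The rows next to the first (locus 1) are genes annotated on the plus strand of chromosome 13, and those next to the second (locus 2) are genes on the minus strand. The labels do not state which transcripts locus 2 holds. Locus 1 had 885 and 900.1 normalised fragments in Prdm16 control libraries and 555 and 634 in the Prdm16 knockout. Locus 2 had 591 and 579 in that control and 382 and 372 in that knockout. Both fell, by 0.59 ± 0.07 (limma adjusted p = 1.46e-08) and 0.63 ± 0.07 (limma adjusted p = 1.74e-08) on the log2 scale. Over the PR domain set locus 1 had 828 and 798 in controls and 862 and 849 in knockouts, and locus 2 had 545 and 574 in controls and 585 and 594 in knockouts. Neither difference (0.07 and 0.08) passed, with limma adjusted p = 0.496 and 0.521. The effects of both knockouts differed by -0.66 ± 0.09 at locus 1 and -0.71 ± 0.10 at locus 2 (limma adjusted p = 3.83e-06 and 4.66e-06).

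Set side by side, the effects of both knockouts differed at 7 of the 10 loci, each lower for the Prdm16 knockout, against 16.4% of all tested loci (8.6% higher and 7.81% lower). These were Shh, Ptch1, Smo, Gli1, Gli2 and both Gli3 loci. The median of the 10 loci was -0.41, and -0.40 with 1 locus per gene, beside -0.00 over all tested loci. Ihh, Hhip and the joint Dhh and Rhebl1 locus did not pass.

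**Figure D3:**
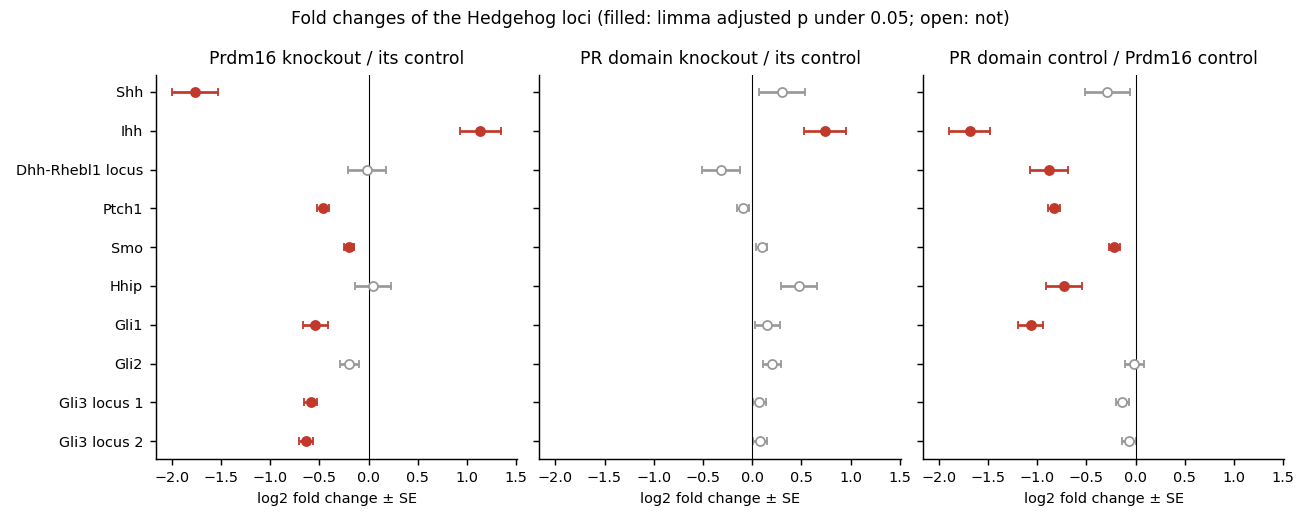
log2 fold changes (x axis) with the SE from limma for the 10 Hedgehog loci in the Prdm16 knockout, in the PR domain knockout, and between the wild-type sets (PR domain control relative to Prdm16 control). Filled points passed an adjusted p of 0.05 and open points did not: 7, 1 and 6 of 10 loci passed.

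Per length, the order of the genes was led by Smo in every group, from 32.5 ± 0.644 FPKM in the PR domain control to 37.5 ± 0.868 FPKM in the Prdm16 control. Ptch1 came next in 3 of the 4 groups, with 26.4 ± 0.734 FPKM in the Prdm16 control and 12.4 ± 1.58 FPKM in the PR domain control, where Gli3 locus 1 (11.5 ± 0.344 FPKM) lay within its spread. In the Prdm16 knockout the joint Dhh and Rhebl1 locus, at 17.1 ± 2.78 FPKM, and Ptch1, at 15.3 ± 0.757 FPKM, did not differ beyond their spread. The lowest gene in the Prdm16 knockout was Shh (0.721 ± 0.0753 FPKM). Hhip (1.07 ± 0.381 FPKM) and Ihh (1.05 ± 0.219 FPKM) were lowest in the PR domain control and lay within their spread of each other. The FPKM given to 100 normalised fragments of Hhip was 1.23 and 2.70 in these 2 libraries, so its place in this order is unsure. For Ptch1 this factor was 2.03 and 2.11 in the Prdm16 control and 1.59 and 1.71 in the Prdm16 knockout. Across the 4 groups, the ranges of Ihh, Ptch1, Gli1 and Gli3 locus 1 did not overlap between any neighbours in the order of normalised fragments. How many of all tested loci do so was not counted, and a range here spans only 2 libraries, so no trait of these genes is read from it. For Shh the PR domain knockout and Prdm16 control overlapped, for Gli2 the Prdm16 and PR domain controls did, and for Hhip the Prdm16 knockout and its control did. For Smo the Prdm16 knockout and the PR domain control overlapped, and for Gli3 locus 2 the PR domain knockout and the Prdm16 control did. At the joint Dhh and Rhebl1 locus each knockout overlapped its own control.

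The third comparison set the wild-type sets against each other, which share their libraries with the knockout comparisons. Of the 10 loci 6 were lower and 0 higher in the PR domain control than in the Prdm16 control, against 33% of all tested loci called (16.3% higher and 16.7% lower). Ptch1 and Gli1 were lower by -0.83 ± 0.06 (limma adjusted p = 8.46e-13) and -1.07 ± 0.13 (limma adjusted p = 6.65e-08). Ihh was lower by -1.69 ± 0.21 (limma adjusted p = 1.54e-07). Hhip (-0.73 ± 0.18), the joint Dhh and Rhebl1 locus (-0.88 ± 0.19) and Smo (-0.22 ± 0.05) were also lower, with limma adjusted p of 0.00228, 0.000606 and 0.00223. That of Hhip did not pass without Prdm16 control replicate 1 (-0.54, limma adjusted p = 0.0827) or without PR domain control replicate 2 (-0.54, limma adjusted p = 0.0651). Shh, Gli2 and both Gli3 loci did not pass. The Prdm16 knockout, with 927 ± 1.94 normalised fragments of Ptch1 and 152 ± 2.98 of Gli1, was therefore below its own control and above the PR domain control, at 719 ± 28.7 and 105 ± 7.37. Of the visceral endoderm markers 12 of 14 were lower and 1 was higher in the PR domain control, and the part of these cells in the differences was not tested.

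The wider pathway was read from 5 lists. Among genes that release the ligands, 5 of 6 were tested. In the Prdm16 knockout 2 fell and 1 rose (median 0.08), beside 39.1% of all tested loci called. Scube1 and Scube3, secreted proteins of the family that helps free lipid-modified Hedgehog, fell from 493 ± 31.8 to 225 ± 7.58 and from 575 ± 21.8 to 389 ± 7.43. Hhat, the acyltransferase that attaches palmitate to the ligands, rose from 47.6 ± 16.7 to 79.3 ± 0.132 (0.77 ± 0.22, limma adjusted p = 0.00541) and did not pass without Prdm16 control replicate 2. None of the 5 passed in the PR domain knockout, where 19.2% of all tested loci were called.

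Co-receptors and other ligand-binding proteins moved both ways. In the Prdm16 knockout 3 of 6 rose and 2 fell (median 0.09), and in the PR domain knockout 2 rose and 0 fell (median 0.19). These calls stand beside 39.1% and 19.2% of all tested loci called in the 2 comparisons. Gas1, a membrane-anchored co-receptor, rose from 678 ± 8.85 to 1163 ± 51.7 in the Prdm16 knockout and from 1180.3 ± 50.5 to 1608 ± 58.6 in the PR domain knockout. The glypican gene Gpc3, whose product binds Hedgehog and competes with Patched, rose by 0.61 and 0.27 on the log2 scale. The endocytic receptor gene Lrp2, also a visceral endoderm product, fell by 0.21 in the Prdm16 knockout.

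Of 18 intracellular transduction genes, from Sufu to protein kinase A, 8 fell and 2 rose in the Prdm16 knockout (median -0.12). These 10 calls stand beside 39.1% of all tested loci. With TMM scaling 5 fell and 2 rose, and with total-fragment scaling 9 fell and 1 rose. Without Prdm16 knockout replicate 1 the counts were 4 and 1, without Prdm16 control replicate 1 they were 5 and 1, and without Prdm16 control replicate 2 they were 5 and 3. Gpr161, a ciliary receptor that restrains the pathway, fell from 213 ± 6.69 to 141 ± 15.2 (-0.59 ± 0.11, limma adjusted p = 6.10e-05). Spop, an adaptor for Gli protein turnover, fell by 0.27 on the log2 scale and Prkar1a, a regulatory subunit of protein kinase A, rose by 0.22. The PR domain knockout had 1 call of 18, the catalytic subunit gene Prkaca, which fell from 1046 ± 4.29 to 749 ± 48.5. Of 20 primary cilium genes 6 fell and 1 rose in the Prdm16 knockout (median -0.09), and 5 fell and 3 rose with TMM scaling. The 7 calls are a smaller share than the 39.1% of all tested loci. The ciliary transport genes Dync2h1 and Ift88 fell by 0.70 and 0.65 on the log2 scale. Calls in the PR domain knockout were 2 lower, Dync2h1 (-0.35 ± 0.09) and Rpgrip1l (-0.33 ± 0.12), and 1 higher, Ift57 (0.46 ± 0.15). Of these cilium calls 0 passed without PR domain control replicate 2 or without PR domain knockout replicate 2.

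Genes known to respond to Hedgehog in embryonic tissues were mostly lower in the Prdm16 knockout. There 7 of 10 tested fell and 0 rose, with a median of -1.60 beside -0.03 over all tested loci. Of all tested loci 39.1% were called in this comparison (18% higher and 21.1% lower). Pax1 and Pax9, sclerotome genes that respond to Shh from the notochord, fell from 170.1 ± 3.82 to 2.41 ± 1.85 and from 53.9 ± 10.2 to 6.88 ± 2.71. The cyclin gene Ccnd1 fell from 695 ± 8.73 to 325 ± 10.3. The others that fell were Foxf2, Osr1, Nkx6-1 and Mycn, named after their values were seen, by 2.102, 2.82, 2.42 and 0.66 on the log2 scale. The PR domain knockout had 2 lower and 2 higher (median -0.23), beside 19.2% of all tested loci called. Pax1 fell from 255 ± 5.34 to 78.9 ± 11.3 and Bmp4, a signalling gene, by 0.38 on the log2 scale. The Wnt antagonist gene Sfrp1 rose by 0.20 and Foxa2 by 0.84. Nkx2-2, Olig2, Nkx2-1 and Nkx3-2 had under 10 normalised fragments in each library and were not tested.

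Marker lists of other cell types were read beside the responsive genes, some of which they share. Their counts stand beside the 39.1% and 19.2% of all tested loci called in the Prdm16 and PR domain knockouts. Of 8 tested neural progenitor markers 7 fell and 1 rose in the Prdm16 knockout, and 4 fell and 0 rose in the PR domain knockout. Their summed level was 1706 to 1737 in the Prdm16 control and 1050 to 1076 in its knockout. It was 1962 to 2029 in the PR domain control and 1356 to 1384 in its knockout. The summed level of the sclerotome and paraxial mesoderm markers was 341 to 377 in the Prdm16 control and 171 to 196 in the knockout. It was 491 to 525 in the PR domain control and 318 to 348 in its knockout. Lateral plate and fibroblast markers, from tissue that receives Hedgehog from the endoderm, gave 3 higher and 4 lower of 9 in the Prdm16 knockout. They gave 5 higher and 2 lower in the PR domain knockout. Of the 5 tested sclerotome markers 2 fell and 1 rose in the Prdm16 knockout, and 1 fell in the PR domain knockout. Of 7 gut endoderm markers 1 rose and 3 fell in the Prdm16 knockout. With TMM or DESeq2 scaling 1 rose and 0 fell, and 0 passed without Prdm16 control replicate 1 or without Prdm16 knockout replicate 2. In the Prdm16 knockout, of 8 endothelial markers 2 rose and 5 fell, of 6 cardiomyocyte markers 5 fell, and of 6 macrophage and blood markers 5 rose. These shifts were not particular to it: 8 endothelial and 6 cardiomyocyte markers fell and 6 macrophage and blood markers rose in the PR domain knockout. There 3 gut endoderm markers rose and 1 fell. The part of these cells in the change of the responsive genes was not tested.

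**Figure D4:**
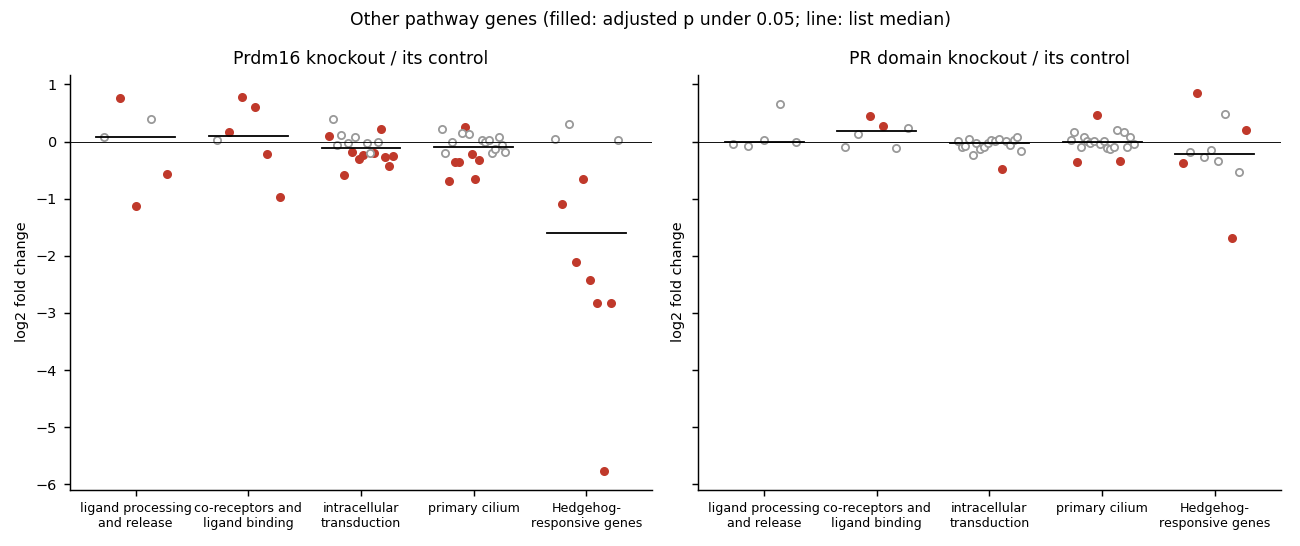
log2 fold changes (y axis) of each tested gene in 5 lists around the Hedgehog pathway, for the Prdm16 knockout (left) and the PR domain knockout (right); filled points passed an adjusted p of 0.05 and lines are list medians. The Hedgehog-responsive genes have a median of -1.60 on the left and -0.23 on the right.

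The genes whose pattern over the 8 libraries was most like that of the readout genes were found among 10180 loci of 1 named gene, predicted genes left out, with a mean of at least 50 normalised fragments. For Ptch1 they were Eif5al3-ps, a pseudogene whose reads may come from other copies (Pearson r = 0.997), the arginine methyltransferase gene Prmt5 (0.994) and the amino acid transporter gene Slc1a4 (0.993). For Gli1 they were the growth factor gene Fgf5 (0.988), Irs4, an insulin receptor substrate gene (0.987), and the DNA repair gene Fancd2 (0.985). Fgf5 had 139 normalised fragments on average in the Prdm16 control, 42.5 in its knockout, 9.21 in the PR domain control and 13.7 in its knockout, a wider range than Gli1. For Hhip they were Fam213b (0.955), Dapk2 (0.945) and Nagpa (0.942). These correlations describe 8 libraries in 4 groups that share their group differences, and no test was made of them.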

How the data were processed

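RNA-seq of 8 libraries was grouped by sample title. The authors deposited a signal table that, judged from its headers and numbers, holds fragments on each locus scaled by a single size factor for the library, and FPKM values, which the authors scaled by transcript length and library size. Cufflinks 2.2.1, TopHat2 2.1.1, SAMtools 1.5, deepTools and mm10 appear in the submitters' processing notes; annotation release and strand setting were not given in the sources used here. Of the values above 0, 99.99 to 100.00% per library came out as whole fragments (tolerance 0.1) after division by the library's smallest step. Loci without a name (787 of 53068) held 1.88 to 2.53% of the fragments and were left out.

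The filter kept 16623 loci that reached 10 in 2 or more libraries. They were tested with limma-trend (limma 3.58.1) on log2(value + 1), with 4 group means, 4 residual and 25.4 prior degrees of freedom. Alternatives were 4 other scalings, 2 other pseudocounts, 2 other filters, edgeR 4.0.16, DESeq2 1.42.0 and limma-voom on the recovered fragments, FPKM, fewer libraries and a replicate block. The script was tested on simulated data. Within groups, replicate counts varied beyond sampling noise (chi-square over its degrees of freedom, 1.40 to 2.235). No set test was run: lists are described by counts and medians.

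The members and the 16 other gene lists were chosen with earlier results of these data known. Named genes were the members, up to 3 called genes per list and knockout with the smallest adjusted p, defining markers at 0, and the 3 loci most like Ptch1, Gli1 and Hhip. Foxf1, Foxl1 and Foxc2 were not analysed here. Some members of the lists are counted but not reported by name here.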

Additional observations from a re-analysis of the deposited data

Results flagged for a closer look

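The effects of both knockouts differed, by the limma test of the difference itself, at 7 of the 10 Hedgehog loci, against 16.4% of all tested loci. Each was lower in the Prdm16 knockout relative to its control than in the PR domain knockout relative to its own. The differences of log2 fold changes were -2.06 for Shh, -0.37 for Ptch1, -0.30 for Smo, -0.70 for Gli1 and -0.40 for Gli2. They were -0.66 for Gli3 locus 1 and -0.71 for Gli3 locus 2. That of Shh passed in each of 21 alternatives, and that of Gli2 was lost in 11.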

How the results depend on the processing

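Of 870 alternative values of the 10 loci in 4 comparisons, 834 kept their direction and side of the threshold, or passed in neither case. The others were 31 that no longer passed, 3 that newly passed and 2 that changed sign. Both of the last were Gli1 on log2(FPKM + 1), at 0.0723 in the Prdm16 knockout and 0.131 for the difference of effects. Of 21 calls 9 held in every alternative: Shh, Ihh, Ptch1 and both Gli3 loci in the Prdm16 knockout, Shh for the difference, and Ihh, Ptch1 and Gli1 between the wild-type sets.

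In the PR domain knockout the number of Hedgehog loci called was 1, and 0 with the DESeq2 Wald test, limma-voom, log2(FPKM + 1) or only the libraries compared. It ranged from 0 to 2 with a library left out, at 2 without the first PR domain control and 0 without the second. For the difference of effects 4 loci passed with DESeq2 and 1 on log2(FPKM + 1), in place of 7, and between the wild-type sets 3 passed on log2(FPKM + 1), in place of 6. With a library left out the counts were 6 to 7, 6 to 7 and 5 to 6 for the Prdm16 knockout, the difference and the wild-type sets.

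Over all loci, DESeq2 called 3983 and log2(FPKM + 1) 2244 in the Prdm16 knockout (6502 in the main test), 1794 and 582 in the PR domain knockout (3190), 1189 and 199 for the difference (2728), and 3388 and 1717 between the wild-type sets (5481). The edgeR test on the recovered fragments called 6470, 3418, 2875 and 5663 in that order. Without a filter 1642 passed for the difference. With a library left out the counts were 5028 to 6477, 2180 to 3367, 1950 to 2390 and 4047 to 5675 in that order. The share of calls that were higher ran from 39.3 to 55.1% over scalings in the Prdm16 knockout (45.9% in the main test), 44.2 to 54.4% in the PR domain knockout and 37.0 to 58.8% for the difference. The causes were not tested.

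Deviations of same-numbered libraries correlated at -0.04 to 0.03 over loci, so no large shared deviation was seen. This cannot show whether the replicates were made in pairs, which the labels do not state. With the replicate block 7, 1, 7 and 6 Hedgehog loci and 6438, 3149, 2686 and 5442 of all loci were called, and no call of a member changed. Fragments limit the low genes most, such as Shh with 13 and 17 in the Prdm16 knockout libraries.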
